A study of Rattus norvegicus with 6 samples.

Results

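The NRF2 pathway antioxidant genes were followed in rat airway basal cells grown in the culture medium BEGM or EpiX. The group was defined by name and held 9 genes: the regulators Nfe2l2 and Keap1, and the antioxidant genes Gclc, Gclm, Gsr, Txnrd1, Srxn1, Nqo1 and Hmox1. All 9 were among the 15037 genes measured, each through 1 probe set. The cells were scraped from the tracheas of male wild-type Sprague Dawley rats, 12 weeks old and weighing 370 ± 39 g, and 3 lines were made, each from a pool of 3 rats. Cells of every line were divided at isolation between 2 media for epithelial cells, BEGM (made for bronchial epithelium) and EpiX, and RNA was harvested on day 8. BEGM and EpiX each had 3 arrays, and no genetic change or added agent is named for either medium. A line stands for a pool of rats, so the spread between arrays is the spread between pools and cultures, not between single animals.

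NRF2, the protein of Nfe2l2, is a transcription factor held low by Keap1, which hands it to a ubiquitin ligase built on Cul3. Oxidants and electrophiles modify Keap1, NRF2 escapes breakdown, and with a small Maf partner it binds antioxidant response elements and induces genes that make glutathione, keep thiols reduced and clear quinones and heme. In the airway lining the pathway is known as a defence against inhaled oxidants and smoke. Its activity is set largely by the stability of the NRF2 protein, which arrays of RNA do not measure.

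To show where these genes carry such elements, the windows from 250 bases before to 50 bases after RefSeq gene starts (GRCr8 build) were searched on both strands. The searched letters were TGACNNNGC (the core of the antioxidant response element), TGAGNNNGC (a variant of that core) and TGAGTCA (the AP-1 site, which overlaps the variant core where GC follows). Windows were found for 7 of the 9 genes, 8 windows in all because Txnrd1 has 2 listed starts. Over the 33469 rat windows of this length, 12.1% held TGACNNNGC, 17.2% held TGAGNNNGC and 4.63% held TGAGTCA. Matches lay in windows of Gclm, Txnrd1, Srxn1 and Nfe2l2, and none in those of Keap1, Nqo1 and Gclc, which says only that these letters are not in that stretch. Hmox1 and Gsr had no window here. All 4 members with a match are shown, of which Srxn1 rose in EpiX, Txnrd1 fell, and Gclm and Nfe2l2 did not pass the test. Matches are in capitals and positions are counted from the start of the gene.
Gclm, chr2:213031938-213031996, plus strand, match at -172 to -164: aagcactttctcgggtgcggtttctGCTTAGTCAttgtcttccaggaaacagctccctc
Txnrd1, second listed start, chr7:22755949-22756007, minus strand, match at -78 to -70: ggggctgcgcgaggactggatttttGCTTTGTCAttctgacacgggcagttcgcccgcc
Srxn1, chr3:161064684-161064815, plus strand, from -128 to 4: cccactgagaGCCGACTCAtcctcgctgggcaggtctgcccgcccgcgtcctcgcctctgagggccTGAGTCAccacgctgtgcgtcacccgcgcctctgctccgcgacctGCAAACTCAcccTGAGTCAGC
Nfe2l2, chr3:81028950-81028971, minus strand, match at 39 to 47, past the start: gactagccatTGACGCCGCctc
In Gclm and Txnrd1 the core reads on the strand opposite to the gene. Srxn1 had 5 matches, of which 3 were to the variant core and 2 to the AP-1 site, and its last 9 bases hold both. A match of letters is a description of the sequence and not a measured binding site.

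Across the arrays, the first principal component of all genes held 69.7% of the variance and placed BEGM array 1 (score -7.24) between the other BEGM arrays (-73.2 and -54.8) and the EpiX arrays (34.2 to 53.9). Of the basal cell markers, Krt14 stood at 16.38 to 17.13 over the 6 arrays, while Ngfr was dim (4.69 to 5.37). Levels are log2 signals as deposited, differences are EpiX minus BEGM on that scale, and every fold assumes that the logarithm has base 2. Levels of different genes come from different probes and were not compared with each other.

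Some markers of airway cell types moved with the medium as well. Of all genes, 2.63% were called higher in EpiX and 3.15% lower. Of 6 basal cell markers 2 rose in EpiX and 0 fell (median 0.58), namely Tp63 from 12.93, 12.53 and 12.23 to 14.71, 14.62 and 14.80 (2.15 ± 0.20, SE; adjusted p = 0.00431) and Krt15 from 12.15, 11.43 and 9.99 to 16.34, 15.53 and 14.06 (4.12 ± 0.71, adjusted p = 0.0229). The other basal cell markers, Krt14 (0.29), Ngfr (0.34), Itga6 (0.16) and Itgb4 (0.81), did not pass. Tp63 kept its call without any single array, whereas Krt15 lost it without BEGM array 2 (adjusted p = 0.095), EpiX array 1 (0.0776) or EpiX array 2 (0.113). Of 5 secretory cell markers 1 rose, Cyp2f4 (1.74 ± 0.30, adjusted p = 0.024), and that call was kept without BEGM array 1 and lost without any other single array (0.0567 to 0.107). The secretory marker Scgb3a1 differed by 5.72 ± 1.43 (adjusted p = 0.0675). It passed with the sample number as a block (0.0201), with that number as a random block (0.0431) and with array weights (0.0353). Among the other secretory markers Bpifa1 was higher in the mean (2.085, limma adjusted p = 0.259). Scgb1a1 (-0.85, adjusted p = 0.786) and Scgb3a2 (-0.38, adjusted p = 0.268) were lower, and none of these passed. With the sample number as a block Bpifa1 passed (adjusted p = 0.0497), but with the random block it did not (0.189). Of 4 ciliated cell markers 0 were called by limma; Foxj1 lay at 3.78 to 4.62, near 4.50, the limit of the dimmest 25% of genes, and Tppp3 at 4.61 to 6.70. Of the 8 macrophage and leukocyte markers, Ptprc, Csf1r, Adgre1, Cd163 and Tyrobp stood at 3.43 to 4.30, but Cd14 at 10.95 to 12.00, Cd68 at 8.65 to 11.36 and C1qa at 6.49 to 7.15. The part of these shifts in the differences of the NRF2 pathway genes was not tested.

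The members moved both ways. In EpiX, Srxn1 and Gsr rose and Txnrd1 fell, each by about 2-fold, while the other 6 did not pass the test. By limma at a Benjamini-Hochberg adjusted p under 0.05 over all genes, 3 of 9 members were called, against 5.78% of all genes. Of these, 2 were higher in EpiX (2.63% of all genes were called higher) and 1 was lower (3.15% of all genes). The members had a median difference of 0.07, beside a median of 0.0022 over all genes. The arrays of the media did not overlap for 5 of 9 members, and for 28.0% of all genes. The members were chosen with earlier results of these arrays known, so these shares describe them and are no test of the group.

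**Figure D1:**
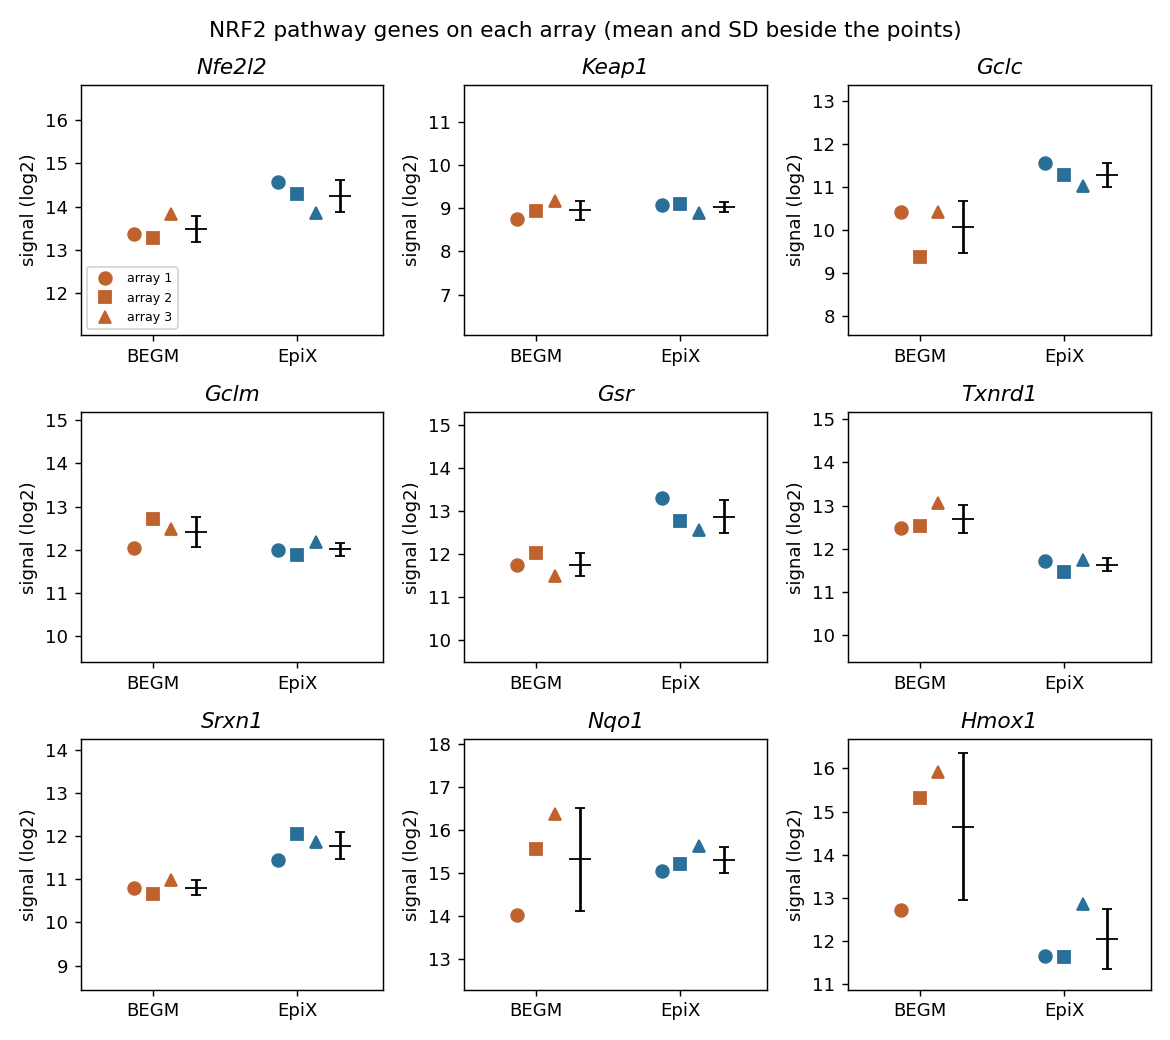
Log2 signal (vertical axis) of each NRF2 pathway gene on the BEGM (orange) and EpiX (blue) arrays, with circles, squares and triangles for arrays 1, 2 and 3 and the mean ± SD of 3 arrays beside them; all panels span the same range. The EpiX points lie above all BEGM points for Nfe2l2, Gclc, Gsr and Srxn1 and below them for Txnrd1, while BEGM array 1 lies apart from the other BEGM arrays for Nqo1 and Hmox1.

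In what follows the values of a medium are given in the order of arrays 1, 2 and 3. Nfe2l2 read 13.37, 13.26 and 13.82 in BEGM and 14.58, 14.30 and 13.84 in EpiX. Its EpiX arrays were all above its BEGM arrays, but EpiX array 3 exceeded BEGM array 3 by only 0.02. The difference of 0.75 ± 0.24 (SE, n = 3 per medium) did not pass (adjusted p = 0.126), and the 95% interval ran from 0.19 to 1.32. It passed with array weights (0.83, adjusted p = 0.0445). Keap1, the adaptor that marks NRF2 for breakdown, was at 8.74, 8.93 and 9.17 in BEGM and at 9.07, 9.10 and 8.89 in EpiX. The media overlapped, and the difference of 0.07 ± 0.16 (adjusted p = 0.844) had an interval of -0.31 to 0.46. Its sign was negative (-0.03) without BEGM array 1.

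Glutathione synthesis begins with glutamate-cysteine ligase, a dimer of the catalytic subunit Gclc and the modifier subunit Gclm. Gclc read 10.41, 9.38 and 10.42 in BEGM and 11.55, 11.28 and 11.01 in EpiX. The groups did not overlap, with BEGM array 2 lowest. The difference was 1.21 ± 0.31 (SE), about 2.31-fold, and did not pass (adjusted p = 0.0749). It passed without BEGM array 1 (1.38, adjusted p = 0.0368), with each array centred on its median (1.34, adjusted p = 0.048) and with array weights (1.34, adjusted p = 0.022).

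Gclm was at 12.04, 12.71 and 12.48 in BEGM and at 12.00, 11.87 and 12.17 in EpiX. The groups overlapped through BEGM array 1, although each EpiX array lay below the BEGM array of the same number. The difference of -0.40 ± 0.20 (SE) did not pass (adjusted p = 0.308), and its interval was -0.88 to 0.08. The catalytic and modifier subunits therefore had mean differences of opposite sign, neither of which passed.

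Within each array the signal of Gclc minus that of Gclm was -1.63, -3.33 and -2.06 in BEGM and -0.45, -0.59 and -1.16 in EpiX. The quantity was higher on every EpiX array than on any BEGM array, by 1.61 in the mean. An exact 2-sided permutation test over arrays gave p = 0.1, the smallest that 3 against 3 arrays allow, and 0.1 after adjustment over the 2 such comparisons made. Both comparisons were chosen after the values were seen. Only the change of this quantity between media can be read, since the probe sets differ.

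Gsr is glutathione reductase, which uses NADPH to return oxidised glutathione to its reduced form. Its signal was 11.76, 12.03 and 11.48 in BEGM and 13.30, 12.76 and 12.55 in EpiX. All EpiX arrays were above all BEGM arrays, with EpiX array 1 the highest. Gsr rose by 1.11 ± 0.24 (SE, n = 3 per medium; adjusted p = 0.0456), a 2.16-fold difference. The same-numbered arrays differed by 1.54, 0.73 and 1.06.

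Txnrd1, the cytosolic thioredoxin reductase and a selenoprotein, keeps thioredoxin reduced, also with NADPH. It was at 12.48, 12.52 and 13.07 in BEGM and at 11.72, 11.46 and 11.73 in EpiX. Every EpiX array lay below every BEGM array, and BEGM array 3 was the highest. Txnrd1 fell (-1.05 ± 0.20, SE of 3 arrays per medium; adjusted p = 0.0315), a 2.08-fold difference. The same-numbered arrays differed by -0.76, -1.06 and -1.34. Of the listed starts of Txnrd1 shown above, the second carries the response element letters, and the probe set was not assigned to a start.

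Gsr and Txnrd1 thus moved in opposite directions between the same arrays, each past the test. Gsr minus Txnrd1 was -0.72, -0.50 and -1.59 in BEGM and 1.58, 1.30 and 0.82 in EpiX. The means differed by 2.17 (exact permutation p = 0.1, again the smallest possible, and 0.1 after adjustment). Every EpiX array was above BEGM for Gsr and below it for Txnrd1, so the groups of this quantity could not overlap. That p-value was therefore fixed beforehand and adds no support.

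Srxn1, sulfiredoxin, repairs peroxiredoxins that peroxide has over-oxidised. It read 10.80, 10.65 and 10.98 in BEGM against 11.44, 12.04 and 11.85 in EpiX. The groups did not overlap, and the BEGM arrays lay close together. Srxn1 rose by 0.97 ± 0.19 (SE, n = 3 per medium; adjusted p = 0.0375), a 1.96-fold difference, and the same-numbered arrays differed by 0.64, 1.39 and 0.88.

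Nqo1, which reduces quinones without forming reactive semiquinones and is widely used as a readout of NRF2, differed in sign between the same-numbered arrays. Its signal was 14.02, 15.56 and 16.38 in BEGM and 15.06, 15.21 and 15.63 in EpiX. The EpiX arrays lay within the BEGM range, which spanned from the lowest to the highest of the 6 values. The difference was -0.02 ± 0.55 (SE; adjusted p = 0.988), and its interval of -1.33 to 1.29 leaves room for a change of either sign as large as those of the genes that were called. The same-numbered arrays differed by 1.04, -0.35 and -0.75, and the sign turned to 0.11 with each array centred on its median.

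Hmox1, heme oxygenase, breaks heme down to biliverdin, iron and carbon monoxide, and is held off by the repressor Bach1 as well as induced by NRF2. It read 12.72, 15.32 and 15.92 in BEGM and 11.65, 11.63 and 12.86 in EpiX. BEGM array 1 lay below EpiX array 3, so the groups overlapped, while BEGM arrays 2 and 3 were above every EpiX array. The difference of -2.60 ± 0.81 (SE), about 6.08-fold lower in EpiX, had the greatest size of the 9 members but did not pass (adjusted p = 0.12). With the sample number as a block Hmox1 passed (adjusted p = 0.0373), but with that number as a random block it did not (0.0808), and the same-numbered arrays differed by -1.07, -3.68 and -3.06. It also passed without BEGM array 1 (-3.57, adjusted p = 0.00285), without both arrays numbered 1 (-3.37, adjusted p = 0.0103) and with array weights (-3.09, adjusted p = 0.0202).

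**Figure D2:**
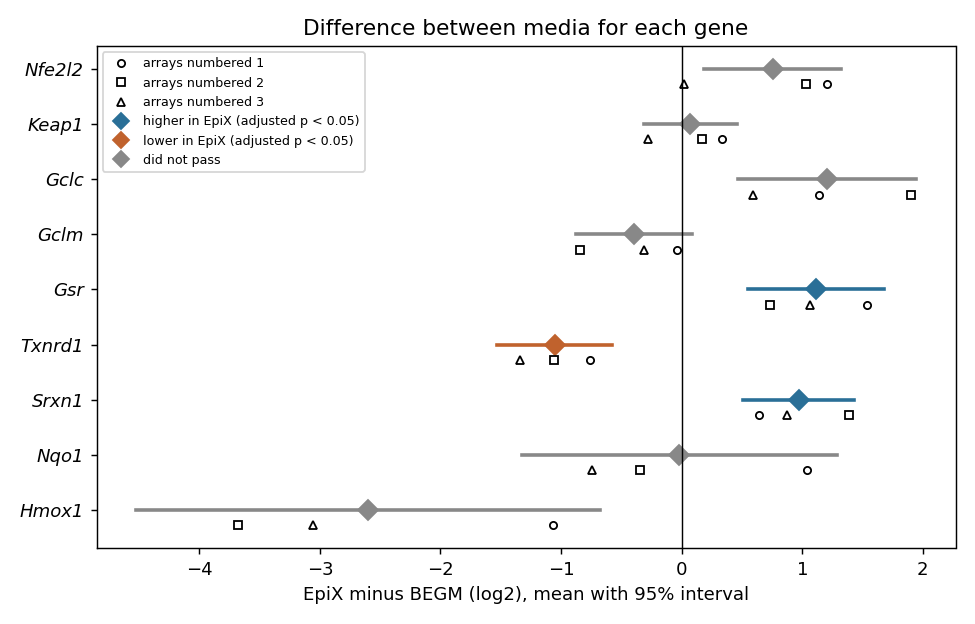
EpiX minus BEGM (log2, horizontal axis) for each gene, with diamonds for the mean, bars for the 95% interval of limma and open symbols for the arrays of each number. Srxn1 and Gsr lie to the right (blue), Txnrd1 to the left (orange), and the grey bar of Hmox1 from -4.53 to -0.68 is the widest.

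Among the BEGM arrays, fibroblast markers had the same order as Hmox1 in their mean level. Of the 7 fibroblast markers (Col1a1, Col1a2, Col3a1, Pdgfra, Dcn, Lum and Fbln1) 0 were called by limma and 3 had an unadjusted p under 0.05, as had 22.5% of all genes. These were Col1a1 (-3.86 ± 1.16, SE; adjusted p = 0.109), Col1a2 (-3.71 ± 0.94; adjusted p = 0.072) and Lum (-2.15 ± 0.66; adjusted p = 0.115), each with every EpiX array below every BEGM array. With the sample number as a block Col1a2 (adjusted p = 0.0405) and Lum (0.0441) passed and Col1a1 did not (0.0666), while with the random block Col1a2 (0.049) passed and Lum (0.0785) and Col1a1 (0.0784) did not. Without BEGM array 1 the 3 passed (adjusted p = 0.0252, 0.00951 and 0.0173 in that order). Without BEGM array 3 the differences shrank to -2.37, -2.53 and -1.34, of which those of Col1a1 (adjusted p = 0.0204) and Col1a2 (0.0235) passed. Their mean level was 6.56, 7.31 and 9.64 in BEGM and 5.84, 5.74 and 5.94 in EpiX. Hmox1 and Nqo1 shared the order of BEGM arrays 1, 2 and 3 with that list, and so did Keap1 and Txnrd1. The larger step of Hmox1 and Nqo1 was from array 1 to array 2, and that of the list mean from array 2 to array 3. The share of all genes with this order was not counted. The first principal component of all genes also ran in that order, away from EpiX (-7.24, -54.8 and -73.2). In EpiX Hmox1 was again highest on array 3, where the list mean was 5.94. No marker is at 0 on this scale; Col1a1 stood at 5.14 to 5.82 in EpiX. The macrophage and leukocyte markers, cells that can be rich in Hmox1, had means of 5.78 to 5.89 in BEGM and 6.02 to 6.19 in EpiX, with 0 of 8 called by limma. These means include the dim markers named above. Cd68 had the order of Hmox1 over BEGM arrays 1, 2 and 3 (8.65, 9.62 and 10.22), but was higher in EpiX in the mean (1.04, adjusted p = 0.400). Cd14 (11.90, 11.20 and 10.95) and C1qa (7.15, 6.83 and 6.49) had the opposite order in BEGM. The part of other cell types in the differences of Hmox1 and Nqo1 was not tested, and in bulk RNA fewer cells of a type cannot be told apart from less RNA per cell.

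**Figure D3:**
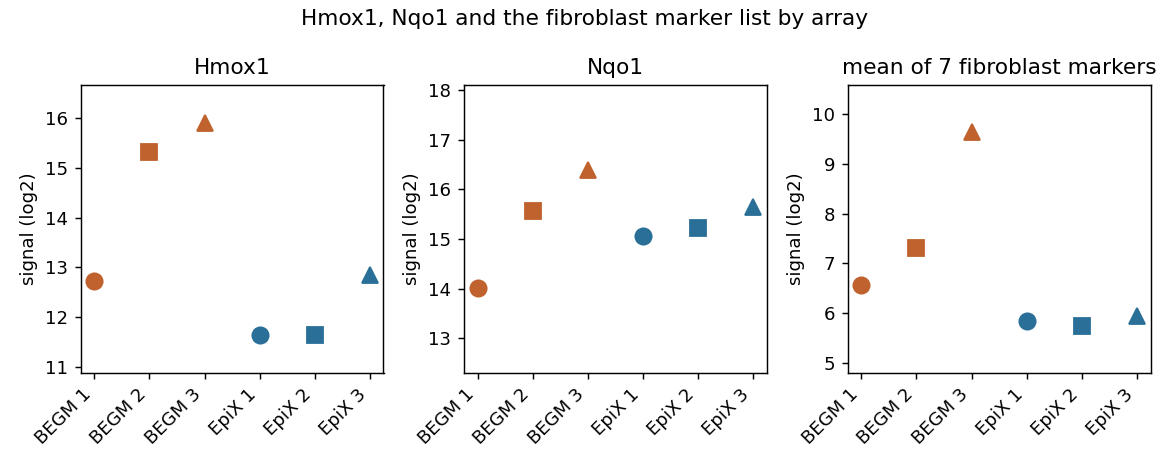
Log2 signal (vertical axis, same span in each panel) of Hmox1, Nqo1 and the mean of 7 fibroblast markers on each BEGM (orange) and EpiX (blue) array. All 3 are lowest among the BEGM arrays on array 1 and highest on array 3, while all 3 EpiX arrays of Nqo1, and EpiX array 3 of Hmox1, lie inside the BEGM range.

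Each array other than BEGM array 1 decided at least 1 of the 3 calls. Txnrd1 kept its call without BEGM array 1 (adjusted p = 0.0158), without BEGM array 3 (0.0497) and without both arrays numbered 1 (0.0436), and lost it without BEGM array 2 (0.0901), EpiX array 1 (0.0996), EpiX array 2 (0.144) or EpiX array 3 (0.0742), and without both arrays numbered 2 (0.356) or 3 (0.0899). Srxn1 kept its call without BEGM array 1 (adjusted p = 0.0364) and without both arrays numbered 1 (0.0318). It lost it without BEGM array 2 (0.137), BEGM array 3 (0.0601), EpiX array 1 (0.0543), EpiX array 2 (0.152) or EpiX array 3 (0.102), and without both arrays numbered 2 (0.423) or 3 (0.13). Gsr kept its call only without BEGM array 1 (adjusted p = 0.0429), its p being 0.0615 to 0.152 without any other single array and 0.0908 to 0.345 without both arrays of a number. Across all these fits the differences stayed between -1.20 and -0.86 for Txnrd1, 0.76 and 1.14 for Srxn1, and 0.90 and 1.30 for Gsr. Their approximate size was kept while the test had fewer arrays. Since the groups of each gene did not overlap, leaving out arrays could not turn the sign. These fits also share most of their arrays, so neither the kept direction nor the kept size adds support.

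**Figure D4:**
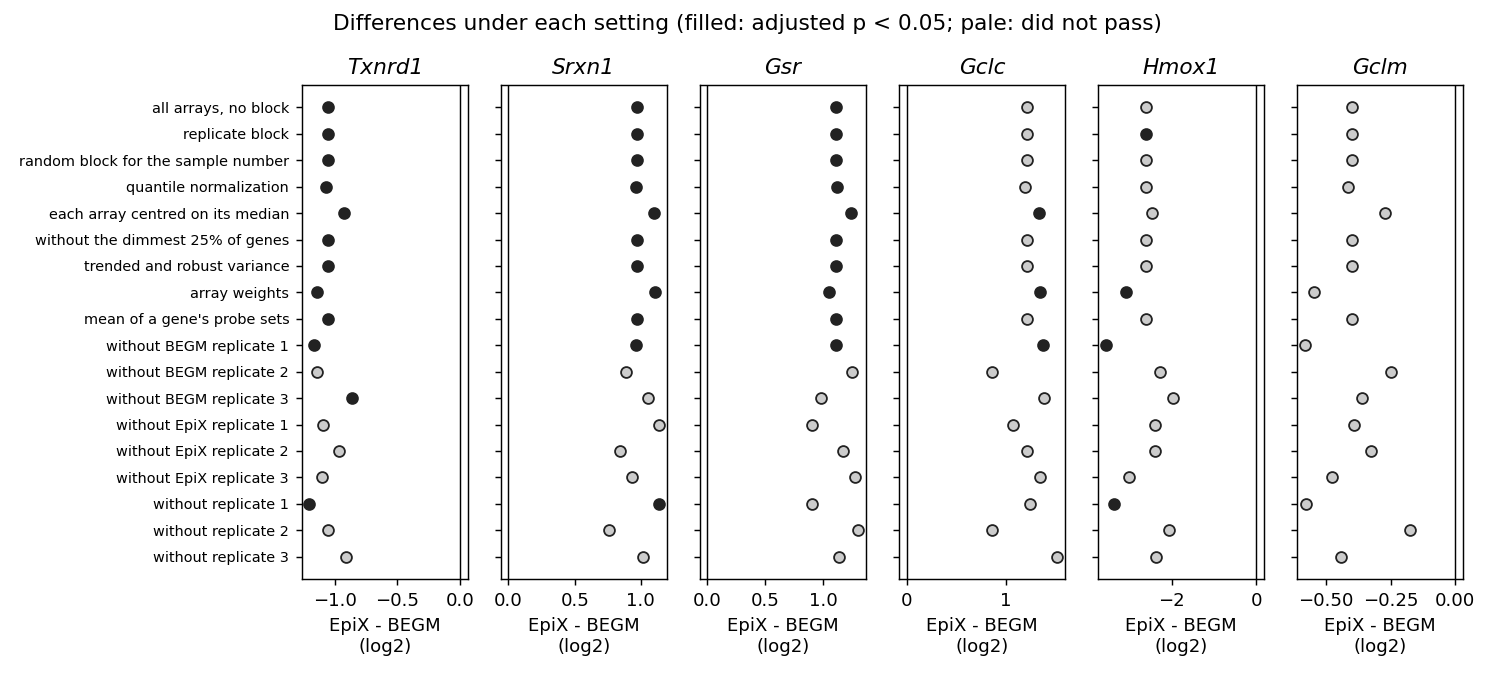
EpiX minus BEGM (log2, horizontal axis) of 6 members under each setting (rows), filled where the adjusted p was under 0.05. Txnrd1, Srxn1 and Gsr are filled under every setting that keeps all arrays, Hmox1 is filled with the replicate block, with array weights, without BEGM array 1 and without both arrays numbered 1, and Gclm is never filled.

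For each member, the nearest genes were those with the smallest root mean square distance between values centred on their own mean over the 6 arrays. By this measure genes that vary little lie close to each other whatever their pattern. Nearest to Txnrd1 was Taf1c (distance 0.09, difference -1.08), and nearest to Srxn1 was Cmss1 (distance 0.06, difference 0.96), followed by Fancd2 (0.08). Irx2 was nearest to Gsr (distance 0.13, difference 1.08). For Hmox1 the nearest were Zcchc24 (distance 0.23, difference -2.56), Cpt1a (0.26, -2.35) and Ror2 (0.33, -2.80), and for Gclc the nearest was Bcl2l11 (0.09, 1.26). No member was among the 3 nearest genes of another member. Among the members, Keap1 and Gclm were the closest pair (0.32), though their mean differences had opposite signs (0.07 and -0.40). Next came Nfe2l2 with Gclc (0.36), Srxn1 (0.37) and Gsr (0.38), and Hmox1 and Gclc were the most distant (2.29).

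The wider pathway was described with 7 lists holding 83 other genes, of which 78 were measured. In these lists 8 genes rose in EpiX, 2 fell and 68 did not pass, and their median difference was 0.04; of all genes, 2.63% rose and 3.15% fell, with a median of 0.0022. The lists were chosen with earlier results known, so their counts below are descriptions to be set against these shares. The glutathione list held 4 of the rises and the list of quinone, carbonyl and conjugate handling 3. No gene of the thioredoxin, NADPH and heme lists was called by limma.

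Among 16 measured genes of glutathione supply and use, 4 rose, 0 fell and 12 did not pass (median 0.35). The largest differences of this list were downward and did not pass, those of Gpx7 (-3.30, adjusted p = 0.0743) and Gpx8 (-2.35, adjusted p = 0.117). For both, every EpiX array lay below every BEGM array, and both passed with the replicate block (adjusted p = 0.0262 and 0.0039). Slc7a11, the cystine carrier of system xc- that brings in the limiting amino acid for glutathione, read 11.68, 10.39 and 11.00 in BEGM and 12.85, 12.53 and 13.50 in EpiX. It rose by 1.94 ± 0.38 (SE; adjusted p = 0.0333), with no overlap, a call kept without BEGM array 1 and lost without any other single array (0.0803 to 0.109). Its heavy-chain partner Slc3a2 rose by 0.75 ± 0.17 (adjusted p = 0.0498), a call that ended with the replicate block (adjusted p = 0.0744), with quantile normalization (0.0504), without the dimmest 25% of genes (0.0501) and without any single array (0.0558 to 0.188). The conjugating enzymes Gsta4 (2.24 ± 0.27, adjusted p = 0.00876) and Mgst1 (1.92 ± 0.34, adjusted p = 0.0257) also rose. Gsta4 lost its call without EpiX array 2 (adjusted p = 0.0597), and Mgst1 without BEGM array 3 (0.0593), EpiX array 1 (0.101) or EpiX array 2 (0.125). The gene for glutathione synthetase, Gss, which completes what Gclc and Gclm begin, did not pass (-0.65 ± 0.30, adjusted p = 0.265); it is named here after its value was seen.

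Among 14 measured genes of quinone, carbonyl and conjugate handling, 3 rose, 0 fell and 11 did not pass (median -0.01). Ephx1, the microsomal epoxide hydrolase, rose by 1.25 ± 0.16 (SE; adjusted p = 0.0106), from 11.80, 11.61 and 11.90 in BEGM to 13.11, 13.17 and 12.79 in EpiX. It did not pass without BEGM array 2 (adjusted p = 0.0515), EpiX array 1 (0.0561) or EpiX array 2 (0.0706). The conjugate export pumps Abcc4 (1.58 ± 0.34, adjusted p = 0.0445) and Abcc3 (1.16 ± 0.23, adjusted p = 0.0375) rose as well, and Abcc3 did not pass with the replicate block (adjusted p = 0.0588). Abcc3 passed without BEGM array 1 but not without any other single array (0.075 to 0.11), and Abcc4 without BEGM array 1 or EpiX array 3 but not without the others (0.0874 to 0.163).

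Of 11 measured partners and regulators of NRF2, 0 rose, 1 fell and 10 did not pass (median 0.02). The gene that fell was Btrc, the adaptor of another ubiquitin ligase that recognises NRF2, at 9.16, 9.62 and 9.85 in BEGM and 8.22, 8.73 and 8.39 in EpiX (-1.10 ± 0.23, SE; adjusted p = 0.041). Its call was lost without any single array but BEGM array 1 (0.0936 to 0.146). Among 9 genes of superoxide and peroxide enzymes, 1 rose, 1 fell and 7 did not pass (median 0.15). The largest difference of this list was that of Sod3 (-4.29 ± 1.35), whose groups overlapped and which did not pass (adjusted p = 0.122). With the replicate block Sod3 passed (adjusted p = 0.0031). Duox1, an oxidase of the airway surface that makes hydrogen peroxide, rose from 7.97, 7.36 and 6.92 to 9.92, 10.01 and 10.48 (2.72 ± 0.29, adjusted p = 0.00656). Cyba, the membrane partner of the NADPH oxidases Nox1 to Nox4, fell from 11.38, 11.82 and 11.73 to 8.50, 8.58 and 7.24 (-3.54 ± 0.36, adjusted p = 0.00571). Duox1 and Cyba kept their calls without any single array.

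The remaining lists held no call by limma. Of 12 thioredoxin and peroxiredoxin genes 0 were called (median 0.01). Their largest differences were those of Txnip, an inhibitor of thioredoxin (0.73 ± 0.20, SE; adjusted p = 0.0825), which passed with each array centred on its median (0.85, adjusted p = 0.0402), and the peroxiredoxin Prdx4 (-0.66 ± 0.35, adjusted p = 0.322). Prdx4 ranged from -0.25 without both arrays numbered 3 (-0.28 without BEGM array 3 alone) to -1.02 without BEGM array 1, where it passed (adjusted p = 0.0403). The 7 measured genes of NADPH supply had a median of 0.34, with H6pd (0.83 ± 0.43, adjusted p = 0.316) and Idh2 (0.77 ± 0.24, adjusted p = 0.114) furthest from 0. H6pd passed with the replicate block (adjusted p = 0.0382) but not with the random block (0.234), and fell to 0.46 without BEGM array 3 and 0.49 without EpiX array 1. Idh2 passed without BEGM array 1 (0.96, adjusted p = 0.0348) and with array weights (0.74, 0.0491). The 9 genes of heme and iron handling had a median of -0.42. Blvra, which turns the biliverdin made by heme oxygenase into bilirubin, differed by -1.08 ± 0.29 (adjusted p = 0.0791). Blvra passed with the replicate block (0.0407), with array weights (0.0336) and without BEGM array 1 (0.045), but not with the random block (0.0525). The iron exporter Slc40a1 differed by -1.07 ± 0.46 (adjusted p = 0.235), and by -1.65 without BEGM array 1, where it passed (adjusted p = 0.0023).

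Over the 7 lists the replicate block gave 7 rises and 7 falls in place of 8 and 2. The added falls were those of Gpx7, Gpx8, Sod3, Blvra and Cbr1. Leaving out BEGM array 1 gave 8 rises and 15 falls, BEGM array 2 3 and 1, BEGM array 3 3 and 1, EpiX array 1 2 and 1, EpiX array 2 1 and 1, and EpiX array 3 5 and 1. Without EpiX array 2 the remaining calls were Duox1 (adjusted p = 0.0439) and Cyba (adjusted p = 0.0308).

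**Figure D5:**
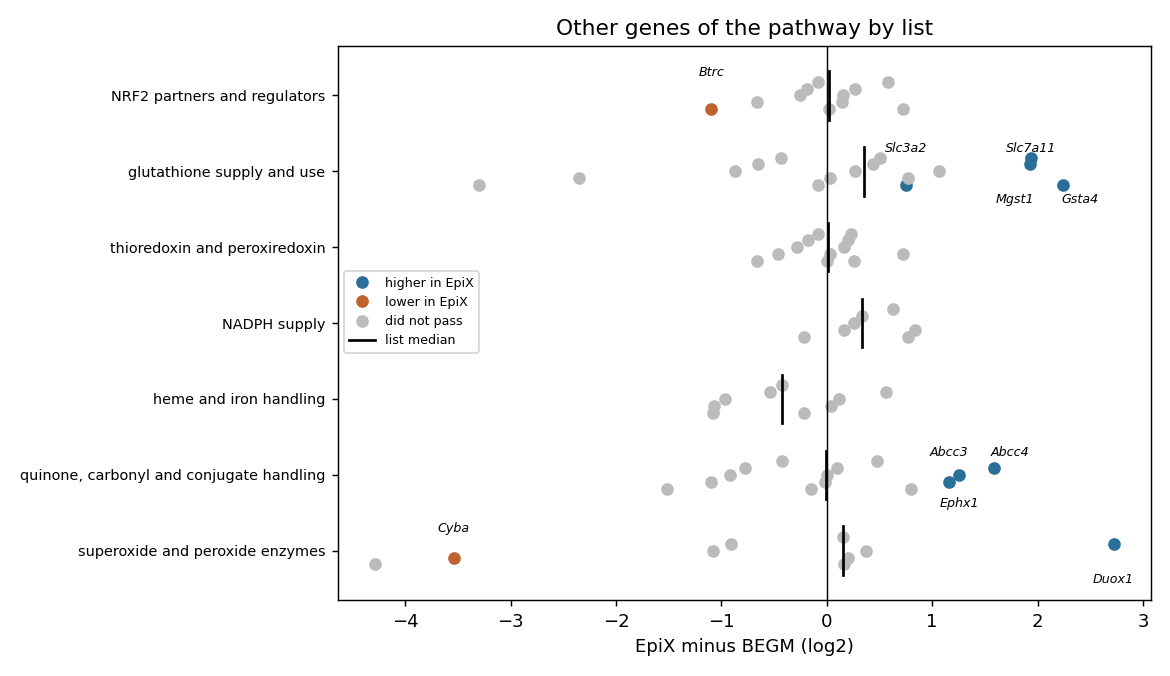
EpiX minus BEGM (log2, horizontal axis) of each measured gene of the 7 pathway lists (rows), blue for genes that rose, orange for genes that fell, grey for those that did not pass, with black bars for list medians. The 4 called glutathione genes and the 3 called genes of quinone, carbonyl and conjugate handling all lie to the right of 0.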

How the data were processed

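Total RNA was labelled with biotin by the Affymetrix protocol, per the labels' protocols. A tool, Transcriptome Analysis Console, appears in the submitters' processing notes with no role or version. The deposited log2 values, 1 per probe set and array, ran from 2.62 to 18.66; their unit was taken from the values, and for normalization, centring and log base nothing was given in the sources used here. Of 24834 probe sets, 15049 had 1 gene symbol in the platform annotation (dated, so names can be old) and 0 had several; the rest, with controls, were left out. The brightest probe set was kept for the 10 genes with several, leaving 15037 genes. All 9 symbols matched RefSeq.

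Medium was the only term in limma 3.58.1 (R 4.3.3; lmFit, eBayes), tested on simulated data, with 2-sided p-values adjusted by Benjamini-Hochberg over all genes. Calls were made under 0.05. Array number limits precision.

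Named genes were all members, called genes of each list, and the 2 largest differences of lists without a call. Gss, Gpx7, Gpx8, Sod3 and Cbr1 were outside this rule and were named after their values were seen. Members and lists were chosen with earlier results of these data known. Sample numbers were taken to pair arrays, since every line was split between media, but the labels do not tie number to line. Titles number the arrays differently (3 for those numbered 2 here), and the titles of those numbered 3 here hold no array number. Deviations of same-numbered arrays correlated over genes at 0.32, -0.01 and 0.32.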

Additional observations from a re-analysis of the deposited data

How the results depend on the processing

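The number of arrays, 3 per medium, limits every call, and p-values measure the spread between these pooled cultures. The 3 calls (Txnrd1, Srxn1 and Gsr) held under all 8 settings that keep the arrays. With array weights 4 members were higher (Nfe2l2 and Gclc added) and 2 lower (Hmox1 added), against 12 falls in the pathway lists and 1987 genes called in all. With the replicate block 2 members were lower, Hmox1 being added, and 7 pathway genes fell, 5 with a random block for the sample number; beyond these and the calls given in the report it changed no member's call. Centring each array moved the median of all differences from 0.0022 to 0.13 and the split of 395 higher and 474 lower genes to 560 and 409. Without single arrays or both arrays of a number, members higher numbered 0 to 3, members lower 0 to 2, pathway genes higher 0 to 8 and lower 0 to 15, and all genes called 0 to 2089. The count of 0 was by limma without both arrays numbered 2, where 1582 genes had an unadjusted p under 0.05. All genes called numbered 869 with all arrays, 2089 without BEGM array 1 and 101 without EpiX array 2. Keap1 turned negative without BEGM array 1 (-0.031) and without both arrays numbered 1 (-0.058), in a range up to 0.25 without both arrays numbered 3. Nqo1 turned positive with median centring (0.11) and in 6 of 9 fits with arrays left out, which ranged from -0.67 to 0.51. Fewer arrays leave the test weaker; the cause of other changes was not tested.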
